A study of Mus musculus with 6 samples.

Results

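The genes described here are the myosin chains of heart muscle: the alpha and beta heavy chains Myh6 and Myh7, the related heavy chain Myh7b, the ventricular light chains Myl2 and Myl3, the atrial light chains Myl4 and Myl7, and Mylk3, the kinase that phosphorylates the ventricular regulatory light chain. They were found by gene name among the gene probes of the arrays, and make up 8 genes with 10 probes, of 22991 genes tested and 55661 usable gene probes in all. The series holds 6 heart samples of male C57BL/6 mice aged 8 weeks, taken 21 days after ligation of the left anterior descending coronary artery, which infarcts the left ventricle. The mice of 3 samples had received a miR-433 antagomir, a chemically modified antisense strand against that microRNA, and those of the other 3 a scrambled oligonucleotide, both at 80 mg/kg by tail vein on 3 consecutive days. Every sample came from an infarcted heart, so that both groups share the injury and no uninjured heart was compared. The labels say neither which part of the heart was taken nor whether each array stands for 1 mouse, and p-values measure only the spread between these samples, which may be technical.

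Cardiac myosin is a motor built from a pair of heavy chains, each carrying an essential and a regulatory light chain at its neck. In the adult mouse ventricle the fast alpha heavy chain prevails, whereas the slow beta chain is typical of the fetal ventricle and returns under load or after injury. Atrial muscle uses its own light chains, with Myl4 as the essential and Myl7 as the regulatory one, in place of Myl3 and Myl2 in the ventricle.

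Signals were read from 1-colour arrays that lay on 1 slide and were scanned together. Gene spots well above background made up 57.7% to 58.5% on the control arrays, 55.2% and 56.2% on antagomir arrays 1 and 2 and 73.6% on antagomir array 3, which stood apart, and 0 gene spots were saturated. The markers of working heart muscle, 12 genes such as Tnnt2 and Tnni3 (cardiac troponin T and I), were well above background on every array. The number of arrays, 3 a group, limits the precision of every value. A level below is the log2 processed signal minus the 75th percentile of the array, and a log2 fold change is antagomir minus control.

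Of the 8 genes, 7 were higher and 1, Myh7, was lower in the antagomir group, with a median log2 fold change of 0.23 (5 were higher with quantile scaling). Over all 22991 genes tested 14401 were higher, with a median of 0.09. By limma 0 of the 8 passed an adjusted p of 0.05, against 0.013% of all genes, which is 3 genes: Defa-ps1, Gngt1 and a transcript on chromosome 6 without a symbol. At an unadjusted p under 0.05 there was 1, Myh7, on the lower side, where 4.16% of all genes lay. The groups did not overlap for Myh7, with the antagomir below control as for 6.93% of all genes, nor for Myl2, with the antagomir above control as for 8.78%. The small positive values of Myh6, Myl2 and Myl3 turned negative with quantile scaling or scaling to the array median, so that no direction is given for them.

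**Figure D1:**
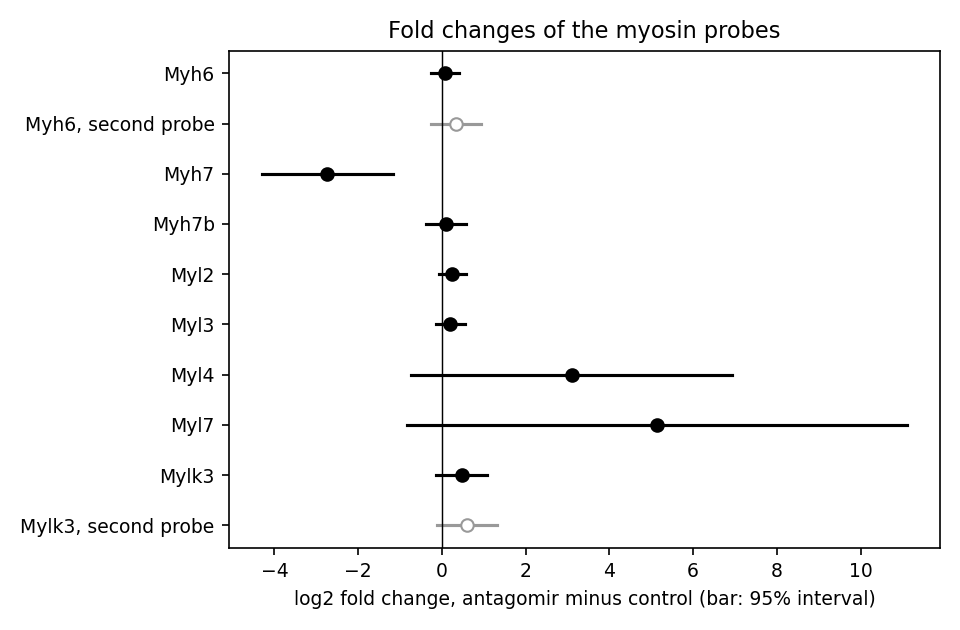
Log2 fold change (antagomir minus control, x axis) of the 10 myosin probes, with bars for the 95% interval of limma; filled points are the probes that stand for their gene, open grey points the second probes of Myh6 and Mylk3. The interval lies to one side of 0 for Myh7 alone (−4.31 to −1.17), and the intervals of Myl4 and Myl7 are the widest.

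**Figure D2:**
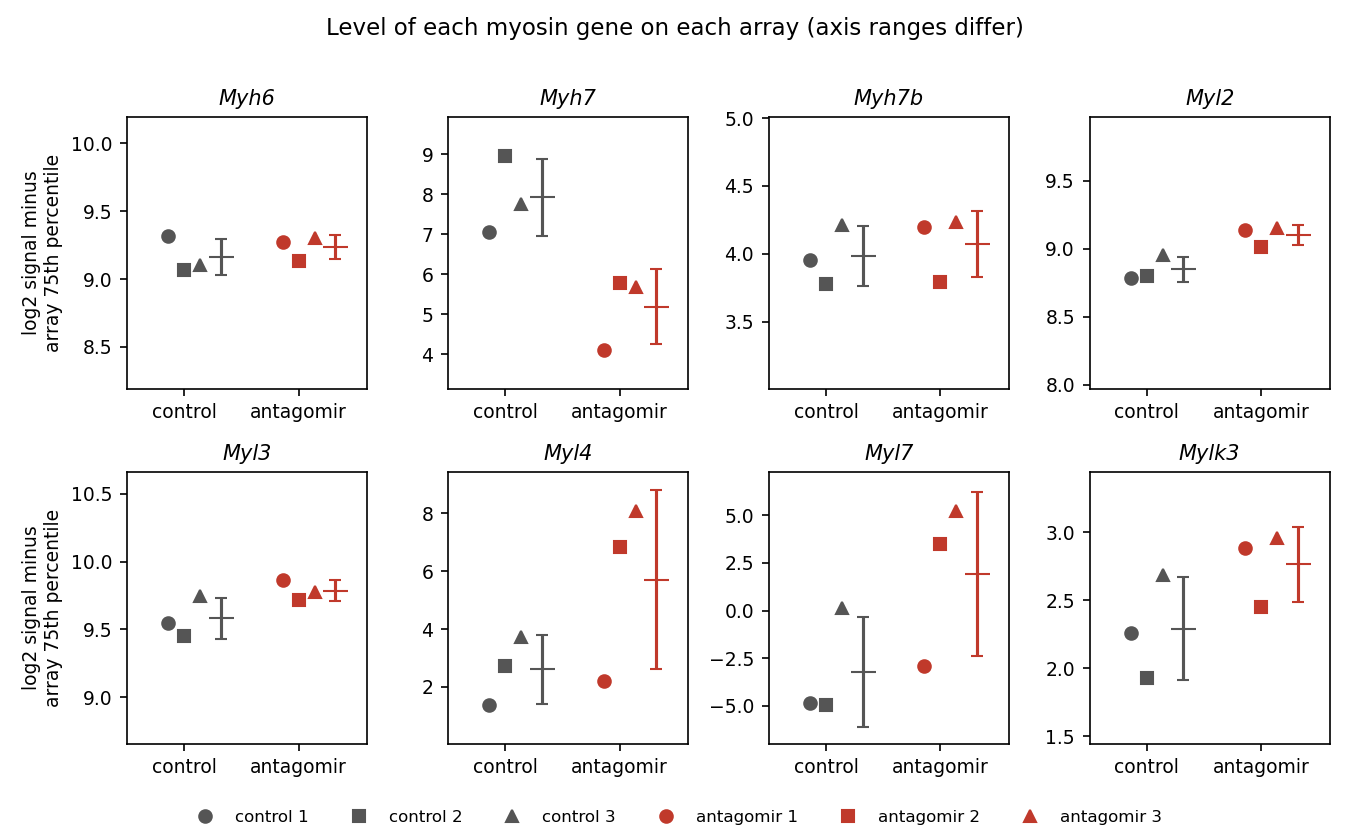
Level (log2 signal minus the array's 75th percentile, y axis, with a different range in each panel) of the 8 genes on the 3 control arrays (grey) and the 3 antagomir arrays (red), with mean and SD beside the points. Myh7 is lower on all 3 antagomir arrays than on any control array, and Myl4 and Myl7 are high on antagomir arrays 2 and 3 but not on antagomir array 1.

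The beta heavy chain had the largest difference among the myosin genes whose groups did not overlap. Myh7 had processed signals of 58890, 227471 and 90901 on the control arrays, in order of replicate number, and of 6207, 19835 and 20395 on the antagomir arrays. The highest antagomir array stood below the lowest control array, and the signal spanned 36.6-fold over the 6 arrays. Its level was 7.93 ± 0.96 in controls and 5.19 ± 0.94 with the antagomir (SD, n = 3 each), a log2 fold change of −2.74 (SE 0.64, 95% interval −4.31 to −1.17, unadjusted p = 0.0053 and adjusted p = 0.556 by limma), or 6.67-fold lower. Of all genes tested 0.157% had a lower fold change. The value was −2.22 without control array 2, the array with the highest Myh7 signal, and −2.57 in a fit blocked on slide row, in which control array 3 alone stands against the antagomir arrays because control arrays 1 and 2 are by themselves in the other row. Scaled to the array median, which moves the median of all genes to −0.38, it was −3.21 (adjusted p = 4.2e-05 by limma). That p-value is smaller than the SDs above allow with 3 arrays a group, and it is not read as a call.

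The probe of Myh7 lies on chromosome 14 (mm9, chr14:55589581-55589640, minus strand), near the 3′ end of the transcript. A probe without a gene name in the files adjoins it directly (chr14:55589521-55589580, minus strand). Its signals were 51237, 128785 and 77207 in controls and 6404, 19485 and 20850 with the antagomir, with a log2 fold change of −2.30 (SE 0.54, adjusted p = 0.556 by limma). By signal both probes put the 6 arrays in the same order, and the groups do not overlap on either.

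The alpha heavy chain, the main motor of the adult mouse ventricle, showed no gap of that size. On its first probe Myh6 had signals of 281319, 244511 and 231805 in controls and of 222112, 203661 and 250037 with the antagomir, a span of 1.38-fold, and the groups overlapped in level. Its level was 9.16 ± 0.14 in controls and 9.23 ± 0.09 with the antagomir (SD, n = 3 each), a log2 fold change of 0.07 (SE 0.14, adjusted p = 0.858 by limma), and −0.17 with quantile scaling. The probe lies at chr14:55560774-55560833 (mm9, minus strand), at the 3′ end of the transcript. A second Myh6 probe, in the part of the transcript near its start (chr14:55584132-55584191, minus strand), had signals of 12975, 7802 and 12099 in controls and 11531, 10739 and 12457 with the antagomir, with control array 2 the lowest. After scaling, every antagomir level of that probe (4.89 to 5.004) lay above every control level (4.10 to 4.88), by a margin that is narrow against control arrays 1 and 3. Its log2 fold change was 0.35 (SE 0.24, unadjusted p = 0.204 by limma).

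Within an array, where scaling cancels, the change of the beta chain can be set against that of the alpha chain, and the beta chain was relatively lower on every antagomir array than on any control array. Relative to the control mean the log2 difference of Myh7 minus Myh6 was −1.02, 1.13 and −0.11 in controls, against −3.92, −2.12 and −2.38 with the antagomir. The mean difference between groups was −2.81, 7.01-fold lower for the beta relative to the alpha chain. The exact two-sided permutation test gave p = 0.1, the smallest that 3 against 3 can give, and 0.3 adjusted over the 3 chain comparisons made. The probes of the 2 genes share no run of letters longer than 8.

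**Figure D3:**
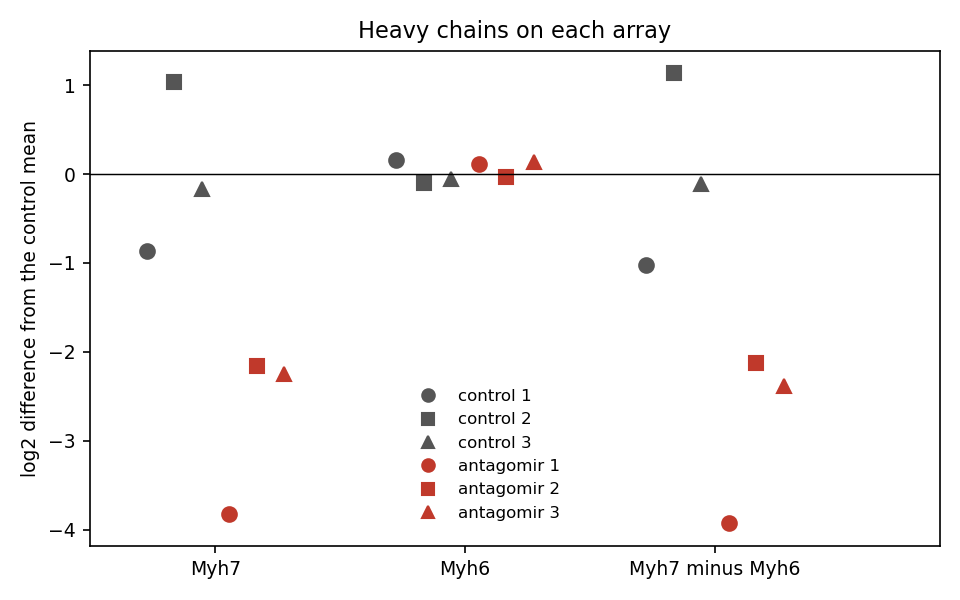
Log2 difference from the control mean (y axis) of Myh7, of Myh6 and of Myh7 minus Myh6 on each of the 6 arrays, control in grey and antagomir in red. Myh6 stays near 0 on all arrays, while Myh7 and the difference of both lie at or below −2.12 on the antagomir arrays and at or above −1.02 on the control arrays.

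Myh7b, a slow-type heavy chain gene that hosts miR-499, had signals of 6841, 6263 and 7817 in controls and of 6587, 5029 and 7466 with the antagomir, and the groups overlapped. Its log2 fold change was 0.09 (SE 0.19, adjusted p = 0.872 by limma), and −0.01 without control array 2. The probe lies at chr2:155459122-155459181 (mm9, plus strand).

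Each of the 3 heavy chain genes carries a microRNA in its body, miR-208a in Myh6, miR-208b in Myh7 and miR-499 in Myh7b. The mature forms are shown because miR-208a and miR-208b, in neighbouring genes, share a seed. The seed of miR-499 differs from it in the last letter only, whereas that of miR-433, the target of the antagomir, is another. Sequences are from RefSeq (GRCm38.p6), 5′ to 3′, with the seed (letters 2 to 8) in capitals, and the labels do not say which arm of miR-433 was blocked. Mature microRNAs were not analysed here.
mmu-miR-208a-3p (Myh6, chr14:54949072-54949093, minus strand): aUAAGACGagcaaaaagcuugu
mmu-miR-208b-3p (Myh7, chr14:54975710-54975731, minus strand): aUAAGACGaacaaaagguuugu
mmu-miR-499-5p (Myh7b, chr2:155622893-155622913, plus strand): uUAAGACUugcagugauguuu
mmu-miR-433-3p (chr12:109591781-109591802, plus strand): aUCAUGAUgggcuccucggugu

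Myh6 and Myh7 are neighbours on the minus strand of chromosome 14, with 2666 bases between them (GRCm38.p6). The groups did not overlap for Myh7, with the antagomir lower, as for 6.93% of all genes. They overlapped on the first Myh6 probe (log2 fold change 0.07). On the second and dimmer Myh6 probe the antagomir was slightly higher without overlap, as for 8.78% of all genes (unadjusted p = 0.204 by limma). The windows from 250 bases before to 50 bases after an annotated start are shown for both because Myh7 minus Myh6 did not overlap between groups. Its exact permutation p was 0.1, and 0.3 adjusted. Capitals mark matches, on either strand, to MCAT (GGAATG), a motif of TEAD factors found in many muscle promoters, and to TATAAA. The motif GGAATG occurs in 14.7% of all 32851 windows of this length and TATAAA in 13.6%. GATA motifs (AGATAA or TGATAA, in 18.6% of windows), the MEF2 motif (3.19%) and the CArG box (1.63%) were searched too, and neither window holds one. Each window holds 1 MCAT match, at position −206 from the start in Myh6 and −201 in Myh7, and TATAAA is found in the Myh6 window only, at position 1. The Myh6 window belongs to a start inside the annotated gene span, and no other start of Myh6 was searched. A window at a second annotated start of Myh7 (chr14:54994500-54994799, minus strand) was searched and holds none of these motifs, MCAT included.
Myh6 (GRCm38.p6, chr14:54966558-54966857, minus strand): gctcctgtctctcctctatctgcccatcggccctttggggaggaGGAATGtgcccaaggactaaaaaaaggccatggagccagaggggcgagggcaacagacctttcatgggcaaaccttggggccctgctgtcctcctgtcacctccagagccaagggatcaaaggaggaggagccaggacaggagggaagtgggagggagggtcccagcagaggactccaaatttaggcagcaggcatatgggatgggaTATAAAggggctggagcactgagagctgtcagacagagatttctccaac
Myh7 (GRCm38.p6, chr14:54994577-54994876, minus strand): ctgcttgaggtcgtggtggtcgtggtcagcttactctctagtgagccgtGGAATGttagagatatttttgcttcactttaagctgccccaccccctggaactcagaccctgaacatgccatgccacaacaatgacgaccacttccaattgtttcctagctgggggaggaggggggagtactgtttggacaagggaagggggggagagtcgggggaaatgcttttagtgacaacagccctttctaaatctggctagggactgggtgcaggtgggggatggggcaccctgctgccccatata

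The ventricular light chains hardly varied between arrays, with spans of 1.20-fold for Myl2 and 1.18-fold for Myl3. Myl2, the regulatory chain, had signals of 194765, 203340 and 208867 in controls and of 202037, 187436 and 225366 with the antagomir. After scaling, its level was 8.85 ± 0.09 in controls and 9.10 ± 0.07 with the antagomir (SD, n = 3 each), every antagomir array lying above every control array by a small step. The log2 fold change was 0.25 (SE 0.13, adjusted p = 0.691 by limma), and with quantile scaling it was −0.00013. Myl3, the essential chain, had signals of 329728, 319751 and 360678 in controls and of 335082, 304944 and 348511 with the antagomir, and its groups overlapped. Its log2 fold change was 0.20 (SE 0.14, adjusted p = 0.691 by limma), and −0.02 in the authors' normalised table. The heart muscle markers lay in the same range: 12 of 12 were higher, with a median log2 fold change of 0.23, and 6 of 12 with quantile scaling. The probes lie at chr5:122556732-122556791 (Myl2) and chr9:110672238-110672297 (Myl3), both on the plus strand of mm9.

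The atrial light chains varied far more than any other gene of the set, and within the antagomir group they split. Myl4 had signals of 1148, 2985 and 5639 on the control arrays and of 1656, 41377 and 108011 on the antagomir arrays. Antagomir arrays 2 and 3 stood above all controls, antagomir array 1 lay between control arrays 1 and 2, and the groups overlapped. Its level was 2.61 ± 1.18 in controls and 5.71 ± 3.10 with the antagomir (SD, n = 3 each), a log2 fold change of 3.10 (SE 1.57, 95% interval −0.73 to 6.93, adjusted p = 0.691 by limma). It was 4.85 without antagomir array 1 and 1.91 without antagomir array 3.

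Myl7 had signals of 15.4, 14.7 and 461 in controls and of 47.0, 4031 and 14938 with the antagomir. It was well above background on all arrays but control array 2, so that its value there, and the fold changes below, rest in part on a signal at the floor. As for Myl4, antagomir array 3 read highest, then antagomir array 2, then control array 3, and antagomir array 1 lay above the dim control arrays 1 and 2. Its log2 fold change was 5.14 (SE 2.44, 95% interval −0.83 to 11.1, adjusted p = 0.691 by limma), the value was 7.57 without antagomir array 1 and 6.82 without control array 3, and the groups overlapped. Without antagomir array 3 it was 3.49. Blocked on slide row, where control array 3 is the only control set against the antagomir arrays, the values were 1.96 for Myl4 and 1.79 for Myl7. Scaled to the array median, Myl4 (2.63) and Myl7 (4.67) had limma adjusted p-values of 0.0029 and 1.5e-11, under the scaling that moves the median of all genes to −0.38.

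The SD of Myl7 was larger than that of 99.97% of all genes tested in both groups, and that of Myl4 was larger than that of 98.5% of genes in controls and 99.8% with the antagomir. Myh6, Myl2 and Myl3 had SDs larger than those of 6.50% to 9.51% of genes in the antagomir group. Across the 6 arrays, which are also the arrays of both groups, the levels of Myl4 and Myl7 had a Pearson r of 0.96, given as a description. Their probes lie at chr11:104448441-104448500 (Myl4, plus strand) and chr11:5798186-5798435 (Myl7, minus strand), both mm9. The Myl7 probe is shown, 5′ to 3′, because the largest difference of the set rests on these 60 letters. They span 250 bases of the genome, of which 190 are skipped.
Myl7 probe: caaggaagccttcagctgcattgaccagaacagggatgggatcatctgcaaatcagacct

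Within arrays, the atrial chain was compared with its ventricular counterpart of the same kind. Relative to the control mean, the log2 difference of the regulatory chains, Myl7 minus Myl2, was −1.56, −1.69 and 3.24 in controls and −0.0018, 6.53 and 8.15 with the antagomir. The group difference of 4.89 had an exact two-sided permutation p of 0.2, and 0.3 adjusted over the 3 chain comparisons. That of the essential chains, Myl4 minus Myl3, was −1.20, 0.23 and 0.97 in controls and −0.69, 4.09 and 5.28 with the antagomir, and the group difference of 2.89 had p = 0.3 by the same exact permutation test. In both, antagomir array 1 lay inside the range of the controls. The probes of each pair share no run of letters longer than 6.

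Other genes typical of atrial muscle were read on the same arrays. Sln (sarcolipin, an inhibitor of the calcium pump in atrial muscle) read 27.3, 104 and 608 in controls against 131, 12445 and 39411 with the antagomir, and Mybphl, an atrial relative of myosin binding protein, 8.8, 13.4 and 80.5 against 38.3, 560 and 2741. On both, as on Myl4 and Myl7, antagomir arrays 3 and 2 and then control array 3 read highest. Nppa, the gene of atrial natriuretic peptide, did not: its signals were 172173, 285395 and 159247 in controls and 10016, 85467 and 160732 with the antagomir. Of 10 atrial markers tested, 5 were higher and 5 lower, with a median log2 fold change of 0.08, and 0 passed the adjusted threshold by limma (3 at an unadjusted p under 0.05: Mybphl, Stard10 at 1.26 and Nr2f2 at −0.43). Mybphl was above background on 1 of 3 control arrays, so no fold is given for it. Bmp10, a growth factor of the atrial wall, was above background on no control array and on 1 antagomir array, and was not tested.

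The summed level of the 12 atrial markers was 8.64 to 9.37 in controls and 5.35 to 9.07 with the antagomir. It is mostly Nppa, with a level of 8.56 to 9.29 in controls and 4.80 to 8.66 with the antagomir. The sum therefore does not show the course of the dimmer atrial markers. For the 8 ventricular markers it was 6.42 to 7.15 in controls and 7.0 to 7.43 with the antagomir, and is mostly Ckm. Among these the transcription factor Irx4 had a log2 fold change of 0.14 (SE 0.19). In RNA of bulk tissue, more atrial cells and more atrial RNA per cell cannot be told apart, and the part that either list plays in the values of Myl4 and Myl7 was not tested. Markers of fat cells were high on the same arrays: Adipoq (adiponectin) had signals of 7.5, 41.0 and 237 in controls and 72.8, 464 and 475 with the antagomir, and Plin1 and Cidec, above background on 1 and 2 of the control arrays, were high there too. Fabp4, the fourth of the list that was tested, did not follow: its signals were 84403, 65643 and 81030 in controls and 74570, 82082 and 73746 with the antagomir. The summed level of that list was 7.17 to 7.60 in controls and 7.56 to 7.84 with the antagomir and is mostly Fabp4, and Lep was above background on no array. Their part was not tested either.

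**Figure D4:**
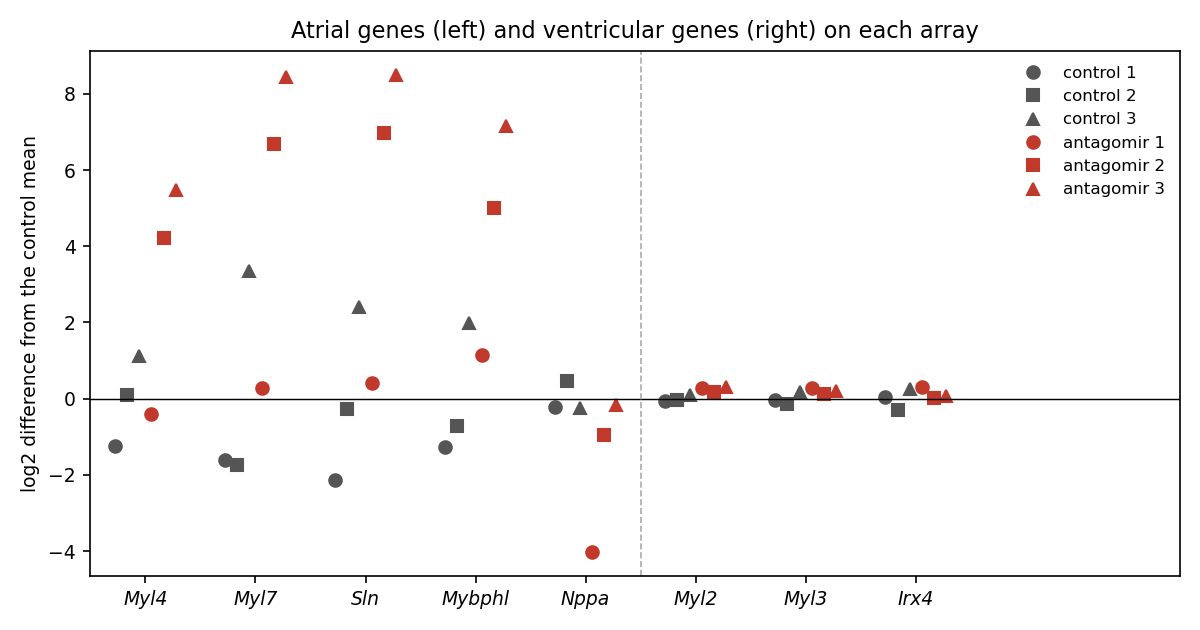
Log2 difference from the control mean (y axis) of 5 atrial genes and, right of the dashed line, 3 ventricular genes on each array. Myl4, Myl7, Sln and Mybphl are high on antagomir arrays 2 and 3 and, among controls, on control array 3, Nppa is lowest on antagomir array 1, and Myl2, Myl3 and Irx4 stay near 0.

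The genes most like the atrial chains in their course over the 6 arrays were Cyp2f2 (r = 1.00), Sln (0.99) and Plaa (0.99) for Myl4, and Hamp (1.00), Gpd1l (0.99) and a transcript listed as ENSMUST00000115842 (0.99) for Myl7. Hamp is the iron hormone hepcidin. On control array 1 the levels of Hamp, Cyp2f2 and ENSMUST00000115842 lay below the lowest signal called above background. Those of Hamp and ENSMUST00000115842 did so on control array 2 and antagomir array 1 too, so their r rests in part on the floor. Gpd1l and Plaa had log2 fold changes of 0.15 and 0.17. For Myh7 they were an unnamed probe on chromosome 13 (1.00), 1500011B03Rik (0.99) and the unnamed probe that adjoins it (0.99). These are descriptions over arrays that share the groups and the scaling.

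The start windows of the atrial chains differ in the motifs they hold. That of Myl7 is shown because it has an MCAT match (as CATTCC, the other strand) at position −70, a CArG box at −61 and a GATA motif at −42, all in capitals. The Myl4 window, inside the annotated gene span, holds none of the 5 motifs searched, which says only that these letters are not in it.
Myl7 (GRCm38.p6, chr11:5898733-5899032, minus strand): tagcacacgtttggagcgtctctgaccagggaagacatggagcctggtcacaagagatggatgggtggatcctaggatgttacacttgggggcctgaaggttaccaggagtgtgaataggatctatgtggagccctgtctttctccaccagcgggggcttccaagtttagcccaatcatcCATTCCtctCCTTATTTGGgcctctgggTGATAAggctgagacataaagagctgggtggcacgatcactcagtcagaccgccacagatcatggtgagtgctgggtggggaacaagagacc

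Mylk3, the cardiac light chain kinase, had signals of 2108, 1737 and 2715 in controls and of 2655, 1984 and 3086 with the antagomir. The groups overlapped, with a log2 fold change of 0.47 (SE 0.25, adjusted p = 0.691 by limma), and its second probe, with signals of 116 to 161 against 117 to 248, gave 0.60 (SE 0.29). Both probes lie on the minus strand of chromosome 8 (mm9, chr8:87874263-87874322 and chr8:87882877-87882936). Of 10 other genes of light chain phosphorylation, 6 were higher and 4 lower with a median of 0.01 (4 higher with quantile scaling), and 0 passed the adjusted threshold or an unadjusted p of 0.05 by limma. Rock2, a kinase that acts on the light chain phosphatase, had 0.39 (SE 0.19), Rock1 −0.28 (SE 0.24), and the phosphatase subunits Ppp1cb and Ppp1r12b 0.30 and 0.22. Myosin folding and turnover genes were higher for 6 of 7 (median 0.16, 0 past the adjusted threshold by limma or an unadjusted p of 0.05). Smyd1, a muscle methyltransferase needed for thick filament assembly, had 0.58 (SE 0.28), and Unc45b, the myosin chaperone, 0.39 (SE 0.31).

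Partners of myosin in the thick filament and M-band were mixed, with 7 of 11 tested higher, a median of 0.11, and 0 past the adjusted threshold by limma (2 at an unadjusted p under 0.05). With quantile scaling 3 of the 11 were higher. Mybpc2, the fast skeletal form of myosin binding protein C, had signals of 3777, 3491 and 1894 in controls and 598, 1103 and 1049 with the antagomir. The log2 fold change of Mybpc2 was −1.49 (SE 0.34, adjusted p = 0.545 by limma), without overlap. Mybphl, above, was the other. The cardiac form Mybpc3 was at 0.09 (SE 0.13).

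Among known regulators of the heavy chain switch, the thyroid hormone axis held the largest value. Thyroid hormone raises the alpha and represses the beta chain in rodent heart, and Dio2 is the deiodinase that makes the active hormone within cells. Dio2 had signals of 612, 4451 and 975 in controls and of 76.3, 212 and 118 with the antagomir, every antagomir array below every control. Its log2 fold change was −3.24 (SE 0.78, unadjusted p = 0.0059 and adjusted p = 0.556 by limma). The hormone receptors Thra and Thrb had 0.14 (SE 0.20) and 0.42 (SE 0.23), and Nfatc4, a calcineurin-dependent factor, −0.75 (SE 0.24) without overlap. Of the 19 tested, 11 were higher and 8 lower with a median of 0.09, 0 passed limma's adjusted threshold, and for 3 the unadjusted p was under 0.05.

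Genes of the fetal and load programme, with which the beta chain is usually grouped, were lower for 5 of 8, with a median of −0.90 and 0 past the adjusted threshold by limma (1 at an unadjusted p under 0.05). Nppb (B-type natriuretic peptide) had signals of 23068, 87024 and 19384 in controls against 1405, 11902 and 5031 with the antagomir, without overlap and with a log2 fold change of −2.71 (SE 0.91, adjusted p = 0.654 by limma). Acta1, skeletal alpha actin, had −1.37 (SE 0.85), Ankrd1, a stress-induced titin partner, −1.03 (SE 0.50), and Xirp2, an actin-binding protein of the intercalated disc, −0.77 (SE 0.34) without overlap. Nppa was at −1.71 (SE 0.99). Antagomir array 1 was the lowest of all for Myh7, Nppb, Acta1, Ankrd1 and Nppa.

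Markers of other cells that ran with Myh7 on these arrays are set beside it. Markers of fibroblasts, the matrix-making cells of scar, were lower for 8 of 8, with a median of −2.36, 6 of them without overlap and with an unadjusted p under 0.05 and 0 past the adjusted threshold by limma. Their summed level was 9.61 to 10.05 in controls and 8.60 to 9.20 with the antagomir, and all 8 were above background on every array. Col1a1 (collagen) was at −2.82 (SE 0.50). The groups overlapped for Dcn, with hardly any difference (−0.0016, SE 0.17), and for Pdgfra (−0.35, SE 0.21). Some markers of skeletal muscle, which also makes the beta chain in its slow fibres, were high on control array 2, where 11 of 12 were above background against 7 to 9 on the other arrays. There Myh2 and Myh1, fast skeletal heavy chains, had signals of 1219 and 473, against at most 30.7 and 9.7 elsewhere, and the fast troponin gene Tnnt3 had 444 against 22.6 to 93.9. Others were not high there. Atp2a1, the fast calcium pump, read 3109, the lowest of the 6 arrays (6240 to 10852 on antagomir arrays, 7525 and 7803 on the other controls). Casq1 and Tnni2 read 197 and 1984, within the range of the other arrays. The slow troponin genes of the fetal and load list were mixed. Tnnt1 read 3740 on control array 2, the lowest of the 6 arrays (4479 to 7181 elsewhere). Tnni1 read 69.3 there, against 18.1 and 15.2 on the other controls and 11.3, 28.0 and 100 with the antagomir. The summed level of the skeletal muscle list was 5.65 to 6.05 in controls and 5.83 to 6.14 with the antagomir. It is mostly Myl1 and Atp2a1, so it says little on Myh1, Myh2 or Tnnt3. Of 7 tested, 4 were higher (median 0.01, and 3 higher with quantile scaling), and Mylpf was above background on no array. Pvalb, the calcium buffer parvalbumin of fast fibres, went another way, with 202, 258 and 187 in controls and 448, 344 and 434 with the antagomir (1.16, SE 0.17, adjusted p = 0.497 by limma), without overlap. The part of either set in the Myh7 values was not tested, and without control array 2 the Myh7 value was −2.22, as given above. Taken relative to the heart muscle markers of each array it was −2.98.

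**Figure D5:**
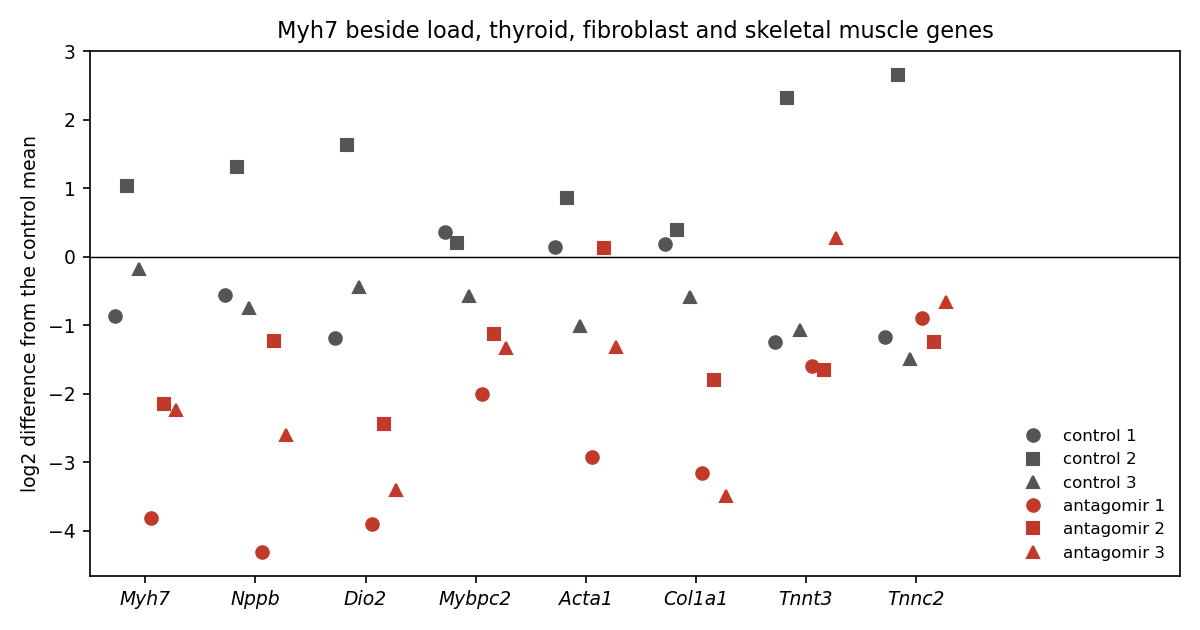
Log2 difference from the control mean (y axis) of Myh7, 2 load genes (Nppb, Acta1), Dio2, Mybpc2, the collagen gene Col1a1 and 2 fast skeletal troponin genes (Tnnt3, Tnnc2) on each array. Myh7, Nppb, Dio2, Mybpc2 and Col1a1 are lower on every antagomir array than on any control array, while the troponin genes stand out on control array 2.

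Other myosin chains were read for comparison. Of 10 other sarcomeric and embryonic chains, 8 were too dim to be tested, among them Myh3, the embryonic heavy chain, which read 10.2, 162 and 7.5 in controls and 6.6, 5.0 and 61.0 with the antagomir, and Myh4, with 6.8, 25.8 and 3.2 against 3.2, 3.6 and 35.7. Both were above background only on control array 2 and antagomir array 3. The 2 tested, Myl1 and Myh8, were at 0.01 (SE 0.25) and 0.28 (SE 0.19), and whether their probes also bind cardiac chains was not tested. Smooth muscle and nonmuscle chains were lower for 8 of 9, with a median of −0.34 and 0 past the adjusted threshold by limma or an unadjusted p of 0.05. Nonmuscle Myh9 (−0.45, SE 0.19) lay below control on every antagomir array, Myh10 was at −0.68 (SE 0.30), the smooth muscle chain Myh11 at −0.50 (SE 0.40), and Myh14, a nonmuscle chain, at 0.47 (SE 0.24).

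Lists of other cells were tested in the same fit, with 0 genes past the adjusted threshold by limma in each. Endothelial markers were lower for 5 of 6 (median −0.15, 1 at an unadjusted p under 0.05, Erg at −0.61), macrophage markers for 5 of 6 (median −0.11, none), smooth muscle markers for 4 of 7 (median −0.34, 2, the contractile genes Tagln at −1.11 and Cnn1 at −1.30), epicardial and mesothelial markers for 4 of 6 (median −0.20, none), and conduction system markers for 1 of 4 tested (median 0.59, none). Ventricular markers were higher for 5 of 7 tested (median 0.36, none), with the factor Hey2 at 0.49 (SE 0.30) and Irx5 at −0.49 (SE 0.22).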

How the data were processed

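Total RNA of 3 control and 3 antagomir heart samples was labelled with Cy3, per the labels, and read on 1-colour arrays. The scanner output was made by Agilent Feature Extraction 10.7.1.1, per the file headers. In these deposited files the processed signal is an intensity, background-corrected and not normalised between arrays. Spot flags in the deposited files are other values, 0 or 1. The authors' deposited table holds raw intensities, equal to the processed signals within 1%, and normalised log2 values. Their method is not given in the sources used here. Sorted within each array, the normalised values differ by at most 0.0014 between arrays, as they do after quantile scaling.

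Control spots and outlier spots (154 to 233 an array) were left out, spots of a probe were averaged in log2, and 55681 probes remained, of which 20 lacked a usable spot on at least 1 array and were dropped. Each array was scaled to its own 75th percentile in log2. A probe entered the test when 3 or more of the 6 arrays read it well above background, and the brightest probe on average stood for its gene. Genes were compared with limma 3.58.1 (R 4.3.3, two-sided, Benjamini-Hochberg over 22991 genes), chain differences by exact permutation. Python 3.11.15, pandas 2.3.3, numpy 2.4.6, scipy 1.17.1 and matplotlib 3.10.9 were used. The steps were tested on simulated data.

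Positions of probes come from the array design (mm9), for which no annotation was used, so exon and UTR are not stated. Names were updated by accession (26574 probes), current symbol (2600) or synonym (492), while 25995 stayed as the file names them. Genes named are the myosin members, up to 4 genes of smallest unadjusted p per list, 12 genes always named (such as Sln, Nppa and Nppb), and the 3 genes most like Myh7, Myl4 and Myl7. Mybpc3, Thra, Tnnc2, Myh1, Myh2, Mylpf, Lep, Casq1, Tnnt1, Tnni1, Dcn, Pdgfra and the 3 genes past the threshold lie outside this rule. They were chosen after their values were seen. The members and lists were chosen with earlier results of these data known.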

Additional observations from a re-analysis of the deposited data

How the results depend on the processing

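Settings tried were normexp background correction with quantile scaling, quantile scaling alone, scaling to the array median, the authors' table, no filter, a filter on all 6 arrays, the mean of a gene's probes, each probe alone, robust moderation with a variance trend, weights for arrays (whose fit stopped short of its tolerance), blocks for replicate number or slide row, scaling to the heart muscle markers and each array left out in turn. Myh7 stayed lower (−3.21 to −2.20) and Myl4 (1.91 to 4.85), Myl7 (1.79 to 7.57) and Mylk3 (0.0017 to 0.67) higher in all that were run for them. Myl7 could not be fitted with the filter on all 6 arrays. Scaled to the array median, Myh7 (−3.21), Myl4 (2.63) and Myl7 (4.67) passed the adjusted threshold. As said above, the p-values of that fit are smaller than the spread of these genes between arrays allows, and they are not read as calls. The chain differences kept their sign in 11 of 11 settings each: −3.32 to −2.24 for Myh7 minus Myh6, 3.26 to 7.34 for Myl7 minus Myl2 and 1.698 to 4.68 for Myl4 minus Myl3. Some settings return the main value by construction and say nothing on direction. They are the replicate block for all, and the mean of probes for genes with 1 probe, such as the light chains. For Myh7 the filters, each probe alone and robust moderation also left the value at −2.74. The authors' table nearly repeats quantile scaling (Myh7 −2.88 in both) and is not a separate check.

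The sign turned for Myh6 with normexp (−0.199), quantile (−0.174), array median (−0.400), the authors' table (−0.171), array weights (−0.0115) and heart muscle markers (−0.172); for Myh7b with array median (−0.380), slide row (−0.141), heart muscle markers (−0.152) and, with arrays left out, between −0.0114 and 0.23; for Myl2 with normexp (−0.0193), quantile (−0.00013) and array median (−0.220); and for Myl3 with normexp (−0.00597), array median (−0.266), the authors' table (−0.0249) and heart muscle markers (−0.0381). The cause was not tested.

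The count of genes past the limma adjusted threshold, 3 in the report, was 1 with quantile scaling, with the authors' table and without a filter, 6 for every probe by itself, 8 with array weights and 199 with array median. It was 0 with normexp, the filter on all 6 arrays, slide row as a block and replicate block (1871, 1589, 307 and 2272 at an unadjusted p under 0.05), and 0 to 3 with an array left out (0 without control array 1, 2 or 3, with 1207, 911 and 1771 at an unadjusted p under 0.05). Same-numbered arrays deviated together with correlations of 0.22, 0.14 and −0.05. Arrays 1 and 2 correlated best with their own number, and array 3 did not. Deviations from means of 3 arrays cannot decide whether the numbers pair the samples, and the main fit treats them as unpaired. With the replicate block the values of the 8 genes and the 3 chain differences cannot change, because each number holds an array of each group (Myh7 −2.74, Myh7 minus Myh6 −2.81). With that block none of the 8 genes passed the adjusted threshold by limma. Array number and the dim signal of Myl7 in controls limit precision.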
